A study of Mus musculus with 69 samples.

Results

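Wnt proteins are secreted ligands that bind Frizzled receptors, either to stabilise β-catenin, which then acts with TCF/LEF factors on target genes, or to steer cell shape and polarity through routes that do not use β-catenin. Secreted inhibitors of the Frizzled-related type bind Wnt proteins outside the cell. In the hippocampus the pathway is known for its part in the birth of granule neurons in the dentate gyrus and in the assembly of synapses.

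Described here are 10 genes of this system, chosen by name in the deposited count table: the ligands Wnt16, Wnt7a, Wnt4, Wnt2 and Wnt5b, the receptors Fzd1 and Fzd7, the secreted inhibitors Frzb and Sfrp2, and the polarity gene Vangl1. They are 10 of 9930 genes in the table, and all 10 were among the 7131 genes that passed the low-count filter over all libraries. The study sequenced hippocampal RNA from 69 males, with a library for each animal. Animals were Cdh13 knockout or wildtype, Cdh13 being the gene of T-cadherin, an adhesion molecule. They were maternally separated, with the litter taken from the dam for 3 h daily between P1 and P14, or control, with the litter handled only. They were sampled at P66, in adulthood, or at P22, the day of weaning, and came from 2 breeding cohorts. At P66 there were 7 separated knockout, 7 control knockout, 10 separated wildtype and 7 control wildtype animals. At P22 the groups held 10 separated knockout, 9 control knockout, 11 separated wildtype and 8 control wildtype animals. Neither the kind of knockout allele nor the litter of an animal is given in the sources used here. Because whole litters were separated, p-values for rearing would be too small where littermates are alike.

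The table as held ends on chromosome 8, and Cdh13 was not analysed here. Its level was therefore not used as a check of genotype. Libraries summed to 11.3 to 16.4 M counts over the held genes (M, mega; median 13.3 M). Of 14 listed markers of hippocampal neurons, 9 were in the table as held, and all 9 passed the low-count filter. Their mean levels were 33.6 to 3407 counts per M counts of the library (CPM). Summed levels of choroid plexus markers, a tissue that lies against the hippocampus, ran from 178 to 803 CPM across libraries, with medians of 356 CPM at P66 and 351 CPM at P22. In bulk tissue, fewer cells of a type and less RNA per cell cannot be told apart.

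Age was the factor with which members differed. Of the 10 members, 4 passed an adjusted p of 0.05 (edgeR quasi-likelihood, Benjamini-Hochberg over all genes), against 52% of all genes tested. Wnt16 was higher at P66 than at P22, as were 26.2% of all genes, and Fzd1, Vangl1 and Sfrp2 were lower, as were 25.8%. DESeq2 called the same members. No member was called for genotype, for rearing or for their interaction at either age.

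Levels of the members differed widely. Per kilobase of exon sequence and averaged over all 69 libraries, Frzb was the highest member at 19.4 ± 3.13 CPM per kb (SD, n = 69). Wnt7a followed at 11.02 ± 1.66, Wnt4 at 8.88 ± 1.46, Fzd1 at 6.23 ± 1.31 and Wnt2 at 5.60 ± 0.988 CPM per kb. Lower levels were found for Fzd7 (3.94 ± 0.585), Wnt5b (3.20 ± 0.412), Vangl1 (1.89 ± 0.404), Sfrp2 (1.44 ± 0.373) and Wnt16 (0.296 ± 0.158 CPM per kb). In this order the intervals of mean ± SD did not overlap between Frzb and Wnt7a, Wnt2 and Fzd7, Wnt5b and Vangl1, or Sfrp2 and Wnt16. All other neighbours overlapped. The order of Fzd1 and Wnt2 was not the same at the 2 ages, since Wnt2 was above Fzd1 at P66 (5.49 ± 1.07 and 5.03 ± 0.511 CPM per kb, n = 31) and below it at P22 (5.69 ± 0.921 and 7.21 ± 0.861 CPM per kb, n = 38).

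Wnt16, a ligand best known from bone, was the least abundant member and the one with the largest age difference. The gene lies on the plus strand at chr6:22288227-22298522 (GRCm38). In separated knockouts it ranged from 0.795 to 2.45 CPM (median 1.63) in 7 P66 animals, against 0.477 to 1.44 CPM (median 0.948) in 10 P22 animals. In control knockouts it ranged from 1.25 to 2.15 CPM (median 1.75) at P66, against 0.356 to 1.23 CPM (median 0.520) at P22. These ranges were apart in control knockouts and overlapped in separated knockouts. In separated wildtypes it ranged from 1.30 to 3.60 CPM (median 2.09) at P66, against 0.597 to 1.24 CPM (median 0.893) at P22. In control wildtypes it ranged from 1.07 to 2.70 CPM (median 1.70) at P66, against 0.464 to 1.28 CPM (median 0.813) at P22. The wildtype ranges were apart in separated animals and overlapped in controls. Behind these values stood 11 to 41 counts per library at P66 and 5 to 19 counts at P22, so single animals were measured with large counting error.

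Over all groups Wnt16 averaged 1.86 ± 0.589 CPM at P66 (SD, n = 31) and 0.826 ± 0.304 CPM at P22 (n = 38). The log2 fold change was 1.17 ± 0.115 (SE; edgeR adjusted p = 1.2e-13), and 29 of 31 P66 animals were above the median of the P22 animals of their own genotype and rearing group. Wnt16 was called in each of these groups, with log2 fold changes of 0.83 in separated knockouts, 1.46 in control knockouts, 1.26 in separated wildtypes and 1.13 in control wildtypes. It was called in each cohort alone, with 1.12 in cohort 1 and 1.26 in cohort 2. The background share of genes called within a group was 19.2%, 28.1%, 30.8% and 18.9% in the same order of groups. No interaction of age was called for Wnt16, or for any other member, by edgeR: not with genotype (0% of genes), rearing (0.0421%) or both together (0.014%).

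Fzd1, a 7-pass Frizzled receptor encoded by a single exon at chr5:4753839-4758035 (minus strand), fell by 0.51 on the log2 scale. In separated knockouts it ranged from 17.0 to 23.7 CPM (median 21.9) at P66, against 24.1 to 35.02 CPM (median 31.8) at P22. In control knockouts it ranged from 18.9 to 25.4 CPM (median 21.4) at P66, against 25.04 to 40.4 CPM (median 29.7) at P22. Of the knockouts, the separated animals had ranges that were apart, while the control ranges touched at their ends. In separated wildtypes it ranged from 17.1 to 23.01 CPM (median 20.9) at P66, against 24.7 to 36.5 CPM (median 28.2) at P22. In control wildtypes it ranged from 18.5 to 23.7 CPM (median 21.9) at P66, against 27.9 to 33.9 CPM (median 30.8) at P22. The wildtype ranges did not overlap. All 31 P66 animals were below the P22 median of their own group.

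Fzd1 averaged 21.1 ± 2.14 CPM at P66 (SD, n = 31) and 30.3 ± 3.61 CPM at P22 (n = 38), with a log2 fold change of -0.51 ± 0.0401 (SE; edgeR adjusted p = 1.5e-17). Within groups the log2 fold changes were -0.51 in separated knockouts, -0.51 in control knockouts, -0.48 in separated wildtypes and -0.54 in control wildtypes, and each was called. The interactions of Fzd1 with age were 0.00 ± 0.0800 for genotype and 0.03 ± 0.0806 for rearing (log2, SE), and neither was called. Within an age its group means lay close together, from 20.8 to 21.5 CPM at P66 and from 29.1 to 31.1 CPM at P22.

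Vangl1, a 4-pass membrane protein of the core machinery of planar cell polarity, lies at chr3:102153583-102204693 (minus strand). In separated knockouts it ranged from 8.87 to 17.6 CPM (median 12.3) at P66, against 12.3 to 21.6 CPM (median 15.4) at P22. In control knockouts it ranged from 9.53 to 12.3 CPM (median 10.5) at P66, against 13.4 to 19.8 CPM (median 14.8) at P22. The ranges were apart in control knockouts, and in separated knockouts 2 of 7 P66 animals were above the P22 median. In separated wildtypes it ranged from 8.30 to 11.6 CPM (median 10.3) at P66, against 11.7 to 18.1 CPM (median 13.997) at P22. In control wildtypes it ranged from 9.75 to 13.6 CPM (median 12.1) at P66, against 11.9 to 18.5 CPM (median 15.01) at P22. Separated wildtypes did not overlap between ages, and control wildtypes did.

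Vangl1 averaged 11.4 ± 2.03 CPM at P66 (n = 31) and 15.3 ± 2.25 CPM at P22 (SD, n = 38), a log2 fold change of -0.41 ± 0.0515 (SE; edgeR adjusted p = 3.7e-10). It was lower than the P22 median of its group in 29 of 31 P66 animals. The log2 fold changes within groups were -0.28 in separated knockouts, -0.56 in control knockouts, -0.51 in separated wildtypes and -0.30 in control wildtypes. All were called, those of separated knockouts and control wildtypes narrowly (edgeR adjusted p = 0.0498 and 0.0429). The interaction of age, genotype and rearing for Vangl1 was 0.49 ± 0.205 on the log2 scale (edgeR p = 0.0201, adjusted p = 0.320) and was not called.

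Sfrp2, a secreted Frizzled-related inhibitor, lies at chr3:83766321-83774316 (plus strand). In knockouts it ranged from 1.57 to 4.44 CPM (median 2.53) in 14 P66 animals, against 2.07 to 4.55 CPM (median 3.35) in 19 P22 animals. In wildtypes it ranged from 1.44 to 3.89 CPM (median 3.03) in 17 P66 animals, against 1.86 to 5.45 CPM (median 3.75) in 19 P22 animals. The ranges overlapped broadly in each genotype. Sfrp2 averaged 2.71 ± 0.677 CPM at P66 (n = 31) and 3.41 ± 0.765 CPM at P22 (SD, n = 38), with a log2 fold change of -0.35 ± 0.0840 (SE; edgeR adjusted p = 0.00034). It was lower than the P22 median of its group in 28 of 31 P66 animals. Within groups it was called in control knockouts (-0.55, adjusted p = 0.015) and not in the other 3, whose log2 fold changes were -0.21 in separated knockouts, -0.26 in separated wildtypes and -0.38 in control wildtypes. The groups were not shown to differ in this, since no interaction with age was called for Sfrp2. Exons of Sfrp2 share 347 bases (16.1%) with Gm26771, a gene on the opposite strand, and whether counting used the strand is not given in the sources used here. Reads of these bases could come from either gene.

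**Figure D1:**
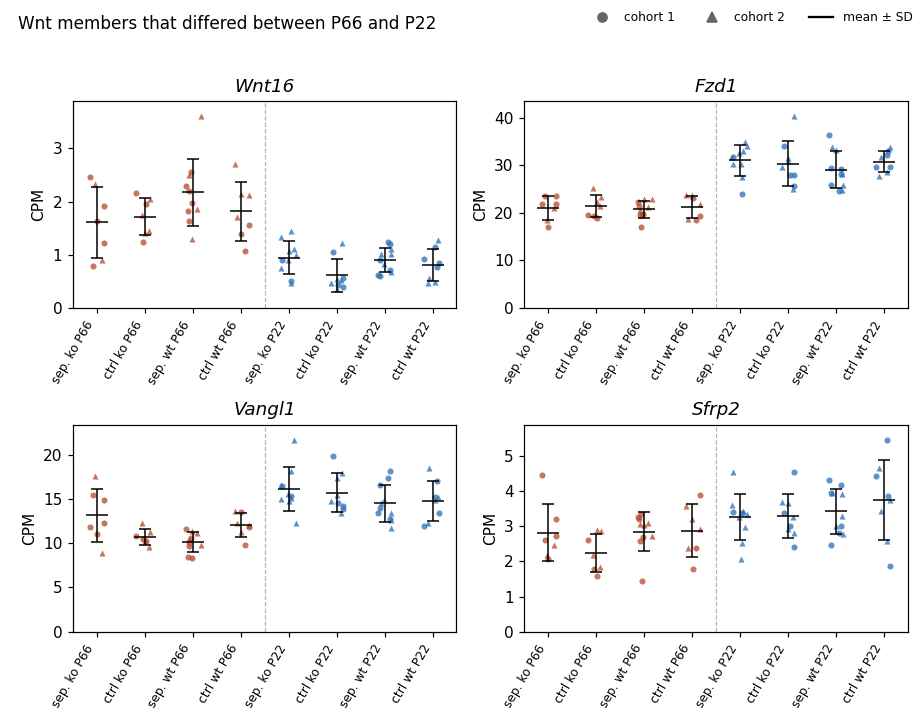
CPM of Wnt16, Fzd1, Vangl1 and Sfrp2 in each of the 69 animals by group (sep., separated; ctrl, control; ko, knockout; wt, wildtype), with P66 groups left of the dashed line and P22 groups right of it; circles are cohort 1, triangles cohort 2, and black marks are mean ± SD. Fzd1 group means were 20.8 to 21.5 CPM at P66 and 29.1 to 31.1 CPM at P22, and Wnt16 is the one of these genes that was higher at P66.

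The other 6 members were not called between the ages. Frzb, which in the mouse dentate gyrus is made by granule neurons and holds back the birth of new neurons, averaged 65.6 ± 8.86 CPM at P66 and 60.5 ± 10.6 CPM at P22 (SD, n = 31 and 38). Its log2 fold change was 0.11 ± 0.0540 (SE; edgeR adjusted p = 0.070), with 24 of 31 P66 animals above the P22 median of their group. Without the control knockout P22 animal numbered 4 of cohort 1, which had 94.5 CPM of Frzb, the log2 fold change was 0.15 and the adjusted p 0.0109 by edgeR.

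Wnt7a, a ligand known to promote the assembly of presynaptic terminals, averaged 33.9 ± 4.29 CPM at P66 and 35.8 ± 5.85 CPM at P22 (log2 fold change -0.10 ± 0.0512, edgeR adjusted p = 0.097). Wnt4, a ligand needed for kidney tubule formation, averaged 35.9 ± 4.62 CPM at P66 and 38.4 ± 6.94 CPM at P22 (-0.10 ± 0.0568, edgeR adjusted p = 0.13). Both lay within the spread of the animals. Wnt2, a ligand known from lung development, averaged 12.4 ± 2.41 CPM at P66 and 12.8 ± 2.08 CPM at P22. Wnt5b, a ligand of the β-catenin-independent branch, averaged 8.59 ± 1.00 CPM at P66 and 8.41 ± 1.17 CPM at P22. Fzd7, a Frizzled receptor known from stem cells, averaged 18.3 ± 2.50 CPM at P66 and 17.5 ± 2.75 CPM at P22. Within groups Fzd7 had log2 fold changes of 0.18 in separated knockouts, -0.11 in control knockouts, 0.00 in separated wildtypes and 0.19 in control wildtypes, none of them called. Its interaction of age, genotype and rearing was 0.48 ± 0.209 (edgeR p = 0.0264, adjusted p = 0.329) and did not pass. For Wnt2, Wnt5b and Fzd7 over all groups the log2 fold changes were -0.05 ± 0.0641, 0.04 ± 0.0478 and 0.06 ± 0.0524 (SE), none of them called.

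Among the ligands measured, Wnt7a and Wnt4 together made up most of the length-scaled level at either age. Of the summed CPM per kb of the 9 ligand genes in the table, Wnt7a took 32.7 ± 3.16% at P66 and 33.0 ± 4.01% at P22 (SD). Wnt4 took 26.2 ± 2.10% at P66 and 26.6 ± 2.67% at P22, and Wnt2 took 16.9 ± 2.93% and 16.7 ± 2.75%. Wnt16 took 1.32 ± 0.425% at P66 and 0.562 ± 0.228% at P22, so its age difference concerned a minor ligand by level. Ligands of other chromosomes were not analysed here and are not in these shares.

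**Figure D2:**
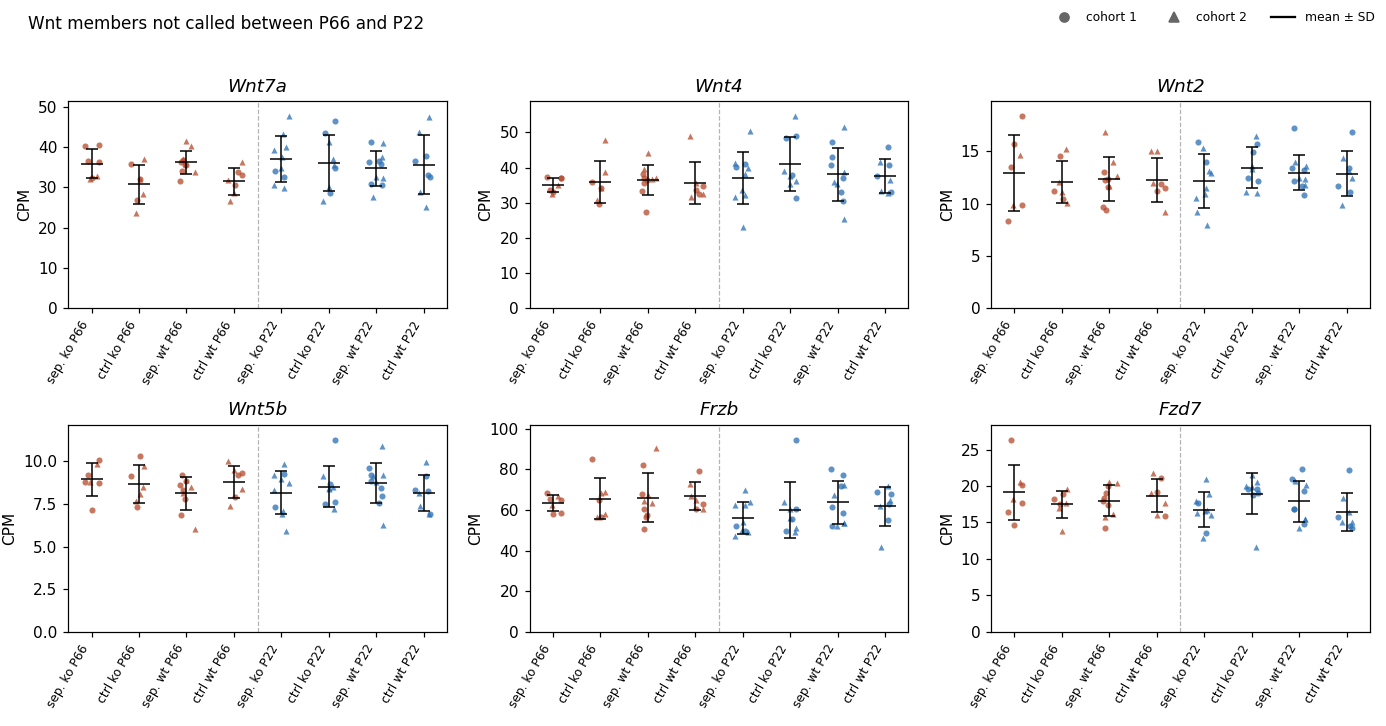
CPM of Wnt7a, Wnt4, Wnt2, Wnt5b, Frzb and Fzd7 in each animal by group (sep., separated; ctrl, control; ko, knockout; wt, wildtype), with P66 groups left of the dashed line and P22 groups right of it; circles are cohort 1, triangles cohort 2, and black marks are mean ± SD. The ages overlap for each of these genes, and in the Wnt7a panel the separated P66 groups average 35.9 and 36.2 CPM, the control P66 groups 30.8 and 31.5 CPM.

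Promoter sequence of the 3 age-dependent members with a RefSeq entry, and of the receptor Fzd7, which was not called with age, is given to show how far TCF/LEF words occur beside these starts. The windows are the 250 bases before the RefSeq gene start (GRCm38.p6), on the gene's strand, 5′ to 3′. Capitals mark CTTTGA or CTTTGT on either strand, the words that TCF/LEF factors bind in many Wnt targets. The RefSeq starts of Fzd1 and Fzd7 lie outside the gene spans of the count table. The Wnt16 window is chr6:22287977-22288226 (plus strand), that of Sfrp2 chr3:83766071-83766320 (plus strand), that of Fzd1 chr5:4758217-4758466 (minus strand) and that of Fzd7 chr1:59481897-59482146 (plus strand).
Wnt16: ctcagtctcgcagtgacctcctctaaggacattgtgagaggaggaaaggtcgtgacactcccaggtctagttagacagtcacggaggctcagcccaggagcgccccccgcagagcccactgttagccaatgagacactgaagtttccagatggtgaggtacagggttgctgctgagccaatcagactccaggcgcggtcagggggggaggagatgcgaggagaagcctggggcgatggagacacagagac
Sfrp2: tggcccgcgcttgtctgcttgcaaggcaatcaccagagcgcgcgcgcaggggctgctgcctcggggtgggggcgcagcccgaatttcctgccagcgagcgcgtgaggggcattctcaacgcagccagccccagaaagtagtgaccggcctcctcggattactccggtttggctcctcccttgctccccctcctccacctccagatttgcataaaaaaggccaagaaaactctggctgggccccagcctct
Fzd1: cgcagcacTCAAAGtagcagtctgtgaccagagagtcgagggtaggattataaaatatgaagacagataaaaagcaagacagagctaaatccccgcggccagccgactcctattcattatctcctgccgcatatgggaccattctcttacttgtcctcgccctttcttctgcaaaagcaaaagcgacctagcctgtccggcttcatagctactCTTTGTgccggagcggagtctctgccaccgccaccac
Fzd7: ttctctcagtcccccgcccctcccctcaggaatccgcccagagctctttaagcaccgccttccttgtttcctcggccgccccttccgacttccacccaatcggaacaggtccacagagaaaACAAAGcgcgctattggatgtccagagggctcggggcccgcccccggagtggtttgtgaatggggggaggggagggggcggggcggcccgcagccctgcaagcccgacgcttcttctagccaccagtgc

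The Fzd1 window held 2 such words, beginning 242 and 37 bases before the start, and the Fzd7 window held 1, beginning 129 bases before it. The Wnt16 and Sfrp2 windows held none. Of the windows not printed, that of Frzb and 1 of the 3 of Wnt5b each held 1 word, and those of Wnt7a, Wnt4 and Wnt2 held none, so words occurred beside members called and not called with age. Either word occurred in 27.6% of 32851 promoter windows of this length, so a match is common and describes these letters only. The windows had a GC content of 59.2% (Wnt16), 63.6% (Sfrp2), 51.2% (Fzd1) and 65.2% (Fzd7), against a median of 52.4% over all windows. The number of CpG pairs was 9, 16, 12 and 17 in the same order, against a median of 6.

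The lists of other pathway genes put these members in context. The table as held had 9 of 19 listed ligands, 11 of 21 genes of the receptor list and 9 of 23 of the inhibitor list. It also had 10 of 22 planar polarity genes. It had 9 of 31 listed genes of the β-catenin route, 7 of 22 targets and 5 of 11 for R-spondin signals and Wnt secretion. Listed genes absent from it were not analysed. Of 9 Wnt ligands tested, 1 rose with age, 2 fell and 6 were not called. Those that fell were Wnt2b (1.77 ± 0.775 CPM at P66 and 3.04 ± 1.52 CPM at P22, log2 fold change -0.80) and Wnt11 (2.45 ± 0.879 and 3.39 ± 1.17 CPM, -0.46). The list median was -0.10, against 0.01 over all genes tested. Over all genes tested 26.2% rose with age and 25.8% fell, and these shares are the background of each list.

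Of 11 genes on the receptor list, 3 rose with age, 5 fell and 3 were not called, with a list median of -0.15. Of all genes 26.2% rose and 25.8% fell. The list includes Smo, a relative of the Frizzled receptors that serves Hedgehog and not Wnt signals. Smo stood at 52.8 ± 5.11 CPM at P66 and 45.3 ± 4.50 CPM at P22 (SD). Beside Fzd1, the receptors Fzd10 (log2 fold change -0.62), Fzd4 (-0.26) and Fzd5 (-0.25) fell. Ror1, a receptor tyrosine kinase that binds Wnt5 proteins, rose (0.35), at 14.6 ± 2.36 CPM at P66 and 11.4 ± 1.87 CPM at P22. Fzd7, the other Frizzled receptor among the 10 members, was not called, and the difference in age effect between Fzd1 and Fzd7 was not itself tested.

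Of 7 genes on the list of inhibitors, not all of them secreted, 1 rose and 2 fell, and 4 were not called. Draxin, a repulsive axon guidance protein that also inhibits Wnt signalling, fell by 1.37 on the log2 scale, with 4.78 ± 0.785 CPM at P66 and 12.3 ± 2.23 CPM at P22. Dkk3, a member of the Dickkopf family that is abundant in hippocampal neurons, rose (0.26), at 904 ± 70.2 CPM at P66 and 753 ± 76.9 CPM at P22. Per kilobase Dkk3 was the most abundant of the listed pathway genes tested, at 269 ± 20.9 CPM per kb at P66 and 224 ± 22.9 CPM per kb at P22. Frzb stood at 20.3 ± 2.74 CPM per kb at P66 and 18.7 ± 3.29 CPM per kb at P22 on the same scale.

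Of 10 planar polarity genes, 5 rose with age, 3 fell and 2 were not called, where 52% of all genes were called in either direction. Vangl2, the close relative of Vangl1, fell by 0.14 on the log2 scale, with 35.7 ± 5.43 CPM at P66 and 39.5 ± 3.54 CPM at P22. Invs (0.20), Intu (0.16) and Ankrd6 (0.14), which act at cilia or in polarity signalling, rose. Per kilobase, Vangl1 stood at 1.59 ± 0.284 CPM per kb at P66 and 2.13 ± 0.315 CPM per kb at P22, while Vangl2 stood at 5.11 ± 0.776 and 5.65 ± 0.507 CPM per kb.

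Of 9 genes of the β-catenin route, 2 rose with age, 2 fell and 5 were not called. Ctnnbip1, which keeps β-catenin from TCF factors, fell by 0.44, and Tcf7l1, a TCF factor that mostly represses, fell by 0.20 on the log2 scale. Tle1 (0.09) and Bcl9 (0.07), a co-repressor and a co-activator, rose. Of 7 target genes, 2 rose, 3 fell and 2 were not called. The neurogenic factors Neurod1 (-0.31) and Prox1 (-0.25) and the cyclin Ccnd2 (-0.21) fell, and Jun rose (0.24). Of 5 genes for R-spondin signals and Wnt secretion, Lgr4 rose (0.19) and Rspo4 (-1.20, at 0.183 ± 0.298 CPM at P66 and 0.323 ± 0.302 CPM at P22) and Wls (-0.17) fell. The lists were thus mixed in direction.

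**Figure D3:**
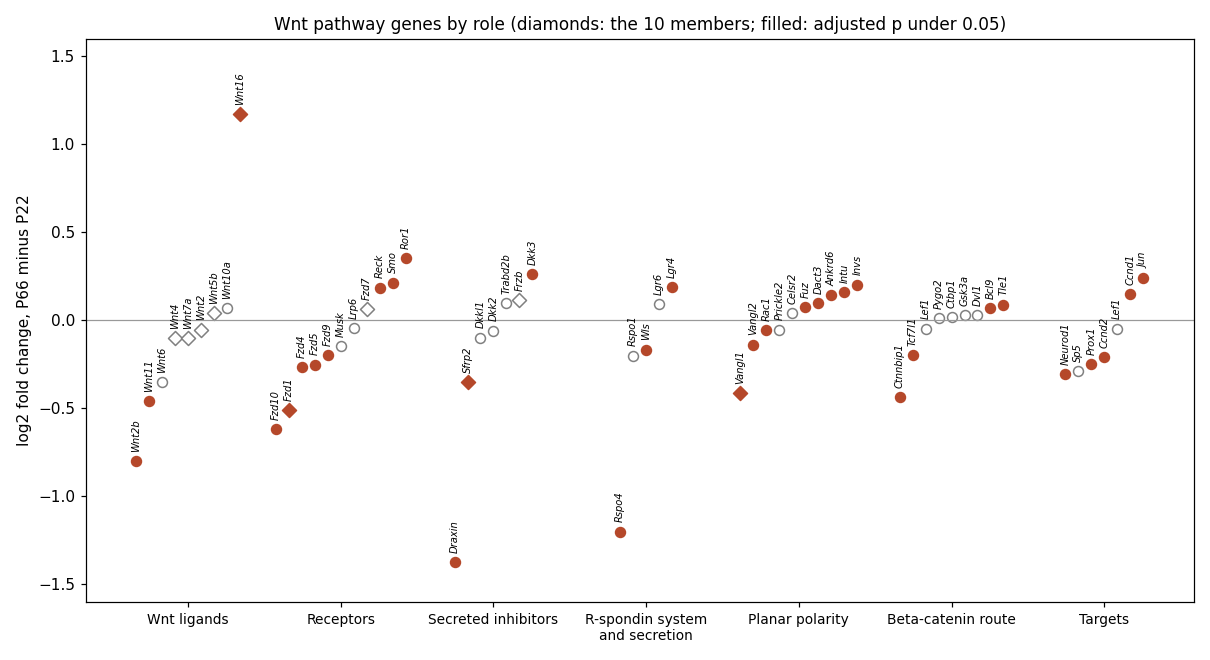
Log2 fold change between P66 and P22 of each tested gene of the pathway lists, grouped by role; diamonds are the 10 described members, circles other genes, and filled symbols have an adjusted p under 0.05. Wnt16 (1.17) stands highest, Draxin (-1.37) and Rspo4 (-1.20) lowest, and each list has called genes on both sides of 0. Rspo4 was near the floor, at 0.183 ± 0.298 CPM at P66 and 0.323 ± 0.302 CPM at P22 (SD).

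Genotype left the members without a call. At P66, 0 of 10 members were called between knockouts and wildtypes by edgeR, against 0.0571% of genes, and 0 had an unadjusted p under 0.05, a level that 8.36% of genes reached. At P22, 0 of 10 members were called, against 0% of genes, and 0 had an unadjusted p under 0.05, against 4.11% of genes. DESeq2 also called 0 members at each age. The log2 fold changes lay between -0.24 ± 0.159 (Wnt16) and 0.10 ± 0.0748 (Vangl1) at P66, and between -0.18 ± 0.174 (Wnt16) and 0.12 ± 0.0698 (Vangl1) at P22. For Fzd1, the most precisely measured member, they were 0.02 ± 0.0532 at P66 and 0.02 ± 0.0568 at P22 (SE).

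Rearing gave 0 called members at P66, against 0.371% of genes, and 0 at P22, against 0% of genes, by edgeR and likewise by DESeq2. At an unadjusted p under 0.05 stood Wnt7a at P66, a level that 12.2% of genes reached, and Wnt16 at P22, where 3.08% did. In 7 separated knockouts at P66, Wnt7a ranged from 32.03 to 40.5 CPM (median 36.3), against 23.5 to 37.1 CPM (median 31.97) in 7 control knockouts. In 10 separated wildtypes at P66, Wnt7a ranged from 31.5 to 41.5 CPM (median 35.99), against 26.5 to 36.2 CPM (median 31.7) in 7 control wildtypes. The ranges overlapped in each genotype, and 16 of 17 separated animals were above the control median of their genotype.

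Wnt7a averaged 36.1 ± 3.12 CPM in separated animals (n = 17) and 31.2 ± 4.01 CPM in control animals at P66 (SD, n = 14). The log2 fold change was 0.20 ± 0.0597 (SE; edgeR p = 0.00216, adjusted p = 0.126; DESeq2 adjusted p = 0.0554), so it did not pass. It was 0.17 in cohort 1 alone and 0.21 in cohort 2 alone. At P22 the same comparison of Wnt7a gave 0.00 ± 0.0772, with 35.8 ± 5.04 CPM in separated animals (n = 21) and 35.9 ± 6.89 CPM in control animals (n = 17). The interaction of age with rearing was 0.20 ± 0.103 for Wnt7a (edgeR p = 0.0531, adjusted p = 0.736) and was not called.

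Wnt16 at P22 averaged 0.922 ± 0.270 CPM in separated animals (n = 21) and 0.708 ± 0.310 CPM in control animals (SD, n = 17). The log2 fold change was 0.37 ± 0.171 (SE; edgeR p = 0.0356, adjusted p = 0.999), with 15 of 21 separated animals above the control median of their genotype. At P66 the difference for Wnt16 was 0.12 ± 0.163 (edgeR adjusted p = 0.852). Neither passed.

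**Figure D4:**
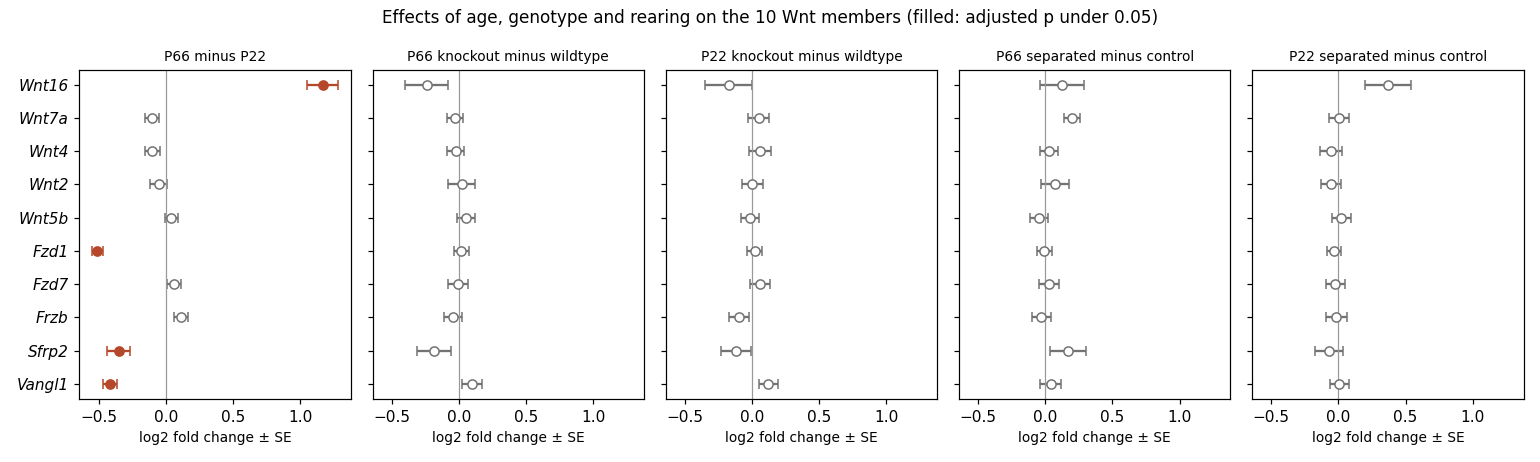
Log2 fold change ± SE of the 10 members for age, genotype at each age and rearing at each age, in the direction named above each panel; filled symbols have an adjusted p under 0.05. Filled symbols occur for age alone: Wnt16 (1.17), Fzd1 (-0.51), Vangl1 (-0.41) and Sfrp2 (-0.35).

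The interaction of genotype and rearing gave 0 called members at P66 and 0 at P22 by edgeR and by DESeq2, against 0% of genes at each age. At P66 Vangl1 had an unadjusted p under 0.05, a level that 4.53% of genes reached, and at P22 no member did, against 8.47% of genes. Vangl1 at P66 averaged 13.2 ± 2.98 CPM in separated knockouts, 10.7 ± 0.880 CPM in control knockouts, 10.2 ± 1.13 CPM in separated wildtypes and 12.0 ± 1.33 CPM in control wildtypes (SD, n = 7, 7, 10 and 7). The separated knockouts were the most spread of these groups.

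The interaction, the separation effect in knockouts minus that in wildtypes, was 0.56 ± 0.149 for Vangl1 (log2, SE; edgeR p = 0.00081, adjusted p = 0.794). Separated minus control was 0.32 in knockouts and -0.24 in wildtypes, and neither passed (edgeR adjusted p = 0.275 and 0.657, with 0% of genes called in each). In cohort 1 alone, with 5 separated knockouts at P66, the interaction was 0.56. In cohort 2 alone it was 0.51, but rested on only 2 separated knockouts at P66. Leaving out 1 animal at a time gave 0.47 to 0.65. The lowest value came without separated knockout 53 of cohort 2 and the highest without separated knockout 84 of cohort 2. For Fzd7 at P22 the interaction was -0.29 ± 0.147 (edgeR p = 0.0573, adjusted p = 0.587), with 16.8 ± 2.37 CPM in separated knockouts, 18.9 ± 2.84 CPM in control knockouts, 17.9 ± 2.84 CPM in separated wildtypes and 16.4 ± 2.66 CPM in control wildtypes. Summed choroid plexus markers at P22 had medians of 296 CPM in separated knockouts, 505 CPM in control knockouts, 353 CPM in separated wildtypes and 305 CPM in control wildtypes. Summed ependyma markers had medians of 37.9, 53.2, 43.4 and 40.4 CPM in the same order of groups. With the choroid plexus score as a covariate, the Fzd7 interaction at P22 was -0.10 ± 0.133 (edgeR adjusted p = 0.729). The ependyma score was not used as a covariate. Whether content of these tissues accounts for the Fzd7 values was not tested.

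No other gene of the pathway lists was called for genotype, rearing or their interaction at either age. The smallest unadjusted p-values by edgeR were found for Fzd4 in separated against control animals at P22 (log2 fold change -0.22, p = 0.00049, adjusted p = 0.999), and for the receptor-associated protein gene Reck (-0.15, adjusted p = 0.157) and Vangl2 (-0.20, adjusted p = 0.183) in separated against control animals at P66. None of these passed.

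Markers of other cell types moved with some members. After removal of group and cohort means, Vangl1 followed the thalamus and habenula markers across the 69 libraries (Pearson r = 0.67), the markers of oligodendrocyte precursors (0.61) and those of oligodendrocytes (0.56). It ran against the hippocampal neuron markers (-0.46). Fzd7 followed the ependyma markers (0.66) and the choroid plexus markers (0.59). These libraries share the dissection and the depth of each animal, so the values are descriptive.

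With age, 9 of 9 tested oligodendrocyte markers and 5 of 5 precursor markers fell, against 25.8% of all genes tested. The summed oligodendrocyte markers ranged from 776 to 1761 CPM at P66 (median 1009), against 1736 to 4134 CPM at P22 (median 2510). The precursor markers ranged from 392 to 617 CPM at P66 (median 430), against 505 to 825 CPM at P22 (median 650). Their part in the lower Vangl1 at P66 was not tested. Of 8 thalamus and habenula markers, 1 rose and 3 fell with age, where 26.2% and 25.8% of all genes did. Their median log2 fold change was -0.26. Their summed level ranged from 273 to 399 CPM at P66 (median 307), against 255 to 442 CPM at P22 (median 311). Single markers had mean levels of 0.643 to 215 CPM, so the sum rests mostly on the highest. The score, a mean of log2 CPM, gives each marker equal weight. With the score of these markers as a covariate the age difference of Vangl1 was -0.32 ± 0.0420 and was called. Without this covariate it was -0.41 ± 0.0515. Scores of oligodendrocytes and their precursors were not used as covariates. The summed thalamus markers at P66 had medians of 343 CPM in separated knockouts, 307 CPM in control knockouts, 303 CPM in separated wildtypes and 295 CPM in control wildtypes. With their score as a covariate, the Vangl1 interaction at P66 was 0.41 ± 0.133, against 0.56 ± 0.149 without it. Whether cell content accounts for either Vangl1 difference was not tested. These fits cannot tell cell content from RNA per cell.

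Wnt16 and Fzd1 followed no marker list closely, with r between -0.19 and 0.18 for Wnt16 and between -0.20 and 0.16 for Fzd1. Wnt16 had 5 to 41 counts per library, and counting error of that size draws r toward 0. Its low r therefore does not show that it is unrelated to these cell types. Wnt4 ran against the newborn neuron markers (-0.46), of which 2 of 3 fell with age, against 25.8% of all genes tested.

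**Figure D5:**
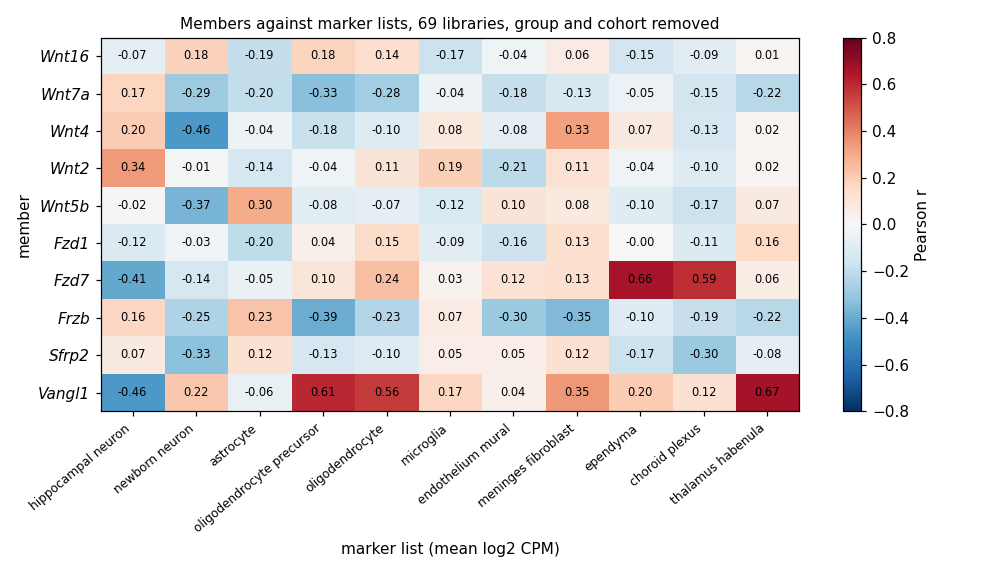
Pearson r between the log2 CPM of each member (rows) and the mean log2 CPM of each marker list (columns) across 69 libraries, with group and cohort means removed; red is positive and blue negative. The highest values are Vangl1 with thalamus and habenula markers (0.67) and Fzd7 with ependyma markers (0.66).

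Across all genes tested, the closest patterns to each member over the 69 libraries, again with group and cohort removed, were as follows. Wnt4 was most like Hdac11 (r = 0.81), Nat14 (0.76) and Oprl1 (0.75), and Frzb was most like Adra1d (0.75), Aqp11 (0.73) and Slc9a4 (0.73). Vangl1 was most like Synpo2 (0.70), Shox2 (0.66) and Patj (0.65), of which Synpo2 and Shox2 are on the thalamus and habenula list. Fzd7 was most like Mdfic (0.70), Fam46c (0.69) and Mlf1 (0.68), and Mlf1 is on the ependyma list. Wnt2 was most like Lefty1 (0.64), the ligand gene Wnt11 (0.61) and Lrmp (0.58). The closest genes were Fbxl19 for Wnt7a (0.63), Resp18 for Wnt5b (0.62), Gcc1 for Fzd1 (0.61), Ndn for Sfrp2 (0.58) and Ntn5 for Wnt16 (0.52). Between members the highest r was 0.51, for Wnt4 with Sfrp2, followed by 0.45 for Wnt7a with Wnt4.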

How the data were processed

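Libraries of hippocampal RNA from 69 males were sequenced. The authors deposited raw read counts per gene, not normalized, in 1 table that holds all animals. The submitters' processing notes name cutadapt 1.16, FastQC 0.11.4, limma 3.34.9 and edgeR. No aligner, counter or genome build is given in the sources used here. Of 9930 complete records, 99.5% had an identifier in GENCODE M21 and 96.5% of these the same position, so positions are given on GRCm38; 1 broken record was left out. Within groups 272 pairs of libraries were compared, and chi-square per degree of freedom was at least 4.47, so none looked duplicated.

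The counts went into edgeR 4.0.16 (R 4.3.3) with these settings: filterByExpr (minimum count 10, minimum total 15), TMM, and quasi-likelihood fits of all genes with terms for group and cohort. Each age was fitted alone for genotype, rearing and their interaction (7036 genes at P22, 7001 at P66), and all libraries together for age (7131 genes). P-values were adjusted over all genes and passed under 0.05. CPM use TMM library sizes of the held genes. Counts of animals on 1 side use the median of the compared animals that share the other factors. Correlations use log2 CPM (prior count 2), and marker scores are mean log2 CPM. Alternatives were DESeq2 1.42.0, RLE normalization, no filter, no cohort term, each cohort alone, marker scores of choroid plexus, meninges or thalamus as covariates, 1 fit of all libraries, and leaving out each library.

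All members were named, with the 3 genes most like each member. Of each pathway list, up to 4 called other genes were named (2 uncalled where none was called). Smo was named as well, because of its place on the receptor list. The members and lists were chosen with earlier results of these data known. Promoter sequences are from RefSeq (GRCm38.p6); 9 members had an entry.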

Additional observations from a re-analysis of the deposited data

Results flagged for a closer look

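Single animals stood apart from their group in 5 of 70 group and member combinations, where chance gives about 1 in 20. The measure was the gap to the next animal over the range of the group (Dixon). The 11 separated wildtypes at P22 were not screened, since the limits used did not cover a group of that size. Wnt4 was 49.0 CPM in control wildtype animal 58 of cohort 2 at P66, and the next highest animal of the group had 35.7 CPM. Control knockout animal 4 of cohort 1 at P22 was highest for Frzb, at 94.5 CPM with the next at 64.02 CPM, and for Wnt5b, at 11.3 CPM with the next at 9.13 CPM. Sfrp2 was 1.44 CPM in separated wildtype animal 53 of cohort 1 at P66, below the next lowest at 2.57 CPM. Fzd7 was 11.7 CPM in control knockout animal 43 of cohort 2 at P22, below the next lowest at 18.8 CPM.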

How the results depend on the processing

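The age calls of Wnt16, Fzd1, Vangl1 and Sfrp2 kept their call and sign in all 36 fits of the other alternatives and in all 276 fits that left out 1 library. Of 834 alternative fits of member comparisons not called, 3 gave a call: Frzb for age in cohort 2 alone (0.18, edgeR adjusted p = 0.0359), Wnt4 for age in cohort 1 alone (-0.22, adjusted p = 0.0134) and Wnt7a for age with the thalamus score (-0.13, adjusted p = 0.0398). Of 3864 fits without 1 library, 10 gave a call. These were Frzb for age in 9 fits and Wnt4 for age without control wildtype animal 58 of cohort 2 at P66 (-0.13, adjusted p = 0.0475). No member was called for genotype, rearing or an interaction of 2 factors under these alternatives. Over all genes, the calls for genotype at P66 numbered 4 by edgeR, 11 by DESeq2, 2 with the meninges score, 0 in cohort 1 alone and 96 in cohort 2 alone. For rearing at P66 they numbered 26 by edgeR, 98 by DESeq2, 41 without the cohort term, 17 with the choroid plexus score, 9 without the filter, 4 with the thalamus score, 0 in cohort 1 alone and 2 in cohort 2 alone. The effects within single groups and the interaction of all 3 factors are given from the stated fit alone. No paired analysis was possible because each cohort and rearing group has its own animal numbers, and 1 number names several animals. Wnt16 and Sfrp2 rest on 5 to 71 counts per library, which limits small differences.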
